A study of Mus musculus with 6 samples.

Results

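The unfolded protein response and the folding machinery of the endoplasmic reticulum (ER) were described here through 10 genes listed by symbol: Hspa5, Hsp90b1, Calr, Pdia3, Pdia4, Xbp1, Atf4, Ddit3, Herpud1 and Sdf2l1. A gene entered if a row of the value table carried its symbol alone, and 8 of the 10 did, each with 1 such row, out of 18820 genes measured in that way. Pdia4 and Ddit3 stood only on rows that carry several symbols, so no value is given for them. The tissue was liver from C57BL6 mice aged 2 months, 4 of genotype Pcyt2+/- (replicates 1 to 4) and 2 wild type (replicates 3 and 4). Each mouse had its own array. The titles call the Pcyt2+/- mice knock-outs, and the genotype field is followed here. The labels state neither sex nor feeding state, nor how the allele was made.

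The ER folds the proteins that a cell secretes, and hepatocytes secrete most proteins of blood plasma. When unfolded proteins build up, the sensors IRE1 (Ern1), PERK (Eif2ak3) and ATF6 start the unfolded protein response, which raises chaperones, slows translation and clears misfolded proteins. The sensors are also known to answer to the lipid make-up of the ER membrane. Pcyt2 encodes the regulated enzyme in the synthesis of phosphatidylethanolamine, a major lipid of that membrane.

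Chaperone genes of this response are known to carry the ER stress response element (ERSE), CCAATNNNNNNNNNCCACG, to which ATF6 and the transcription factor NF-Y bind, or its relative ERSE-II, ATTGGNCCACG. Promoter windows of RefSeq (build GRCm38.p6, 250 bases before to 50 after the annotated start) were found for all 10 genes and searched on both strands. An exact ERSE stood in those of Hspa5, Hsp90b1 and Calr, 3 of 10, against 39 of all 32851 windows (0.119%). An exact ERSE-II stood in that of Herpud1, against 12 of all windows (0.0365%). Both elements are known from genes of this response, so matches among the members were to be found. These counts describe the windows and are no test of the members. The stretches that hold them are shown so that the elements can be read beside the values of these 4 genes. Pdia3, which among the members followed Hspa5 most closely over the arrays, held neither element. The capitals mark the fixed letters of the elements, and each stretch reads along the gene's strand and ends before the start site. An element on the opposite strand therefore reads as CGTGG, the spacer and ATTGG.
Hspa5, chr2:34772015-34772053, plus strand: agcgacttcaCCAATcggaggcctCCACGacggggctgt
Calr, chr8:84847065-84847103, minus strand: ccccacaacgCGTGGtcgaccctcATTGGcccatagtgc
Hsp90b1, chr10:86705523-86705666, minus strand: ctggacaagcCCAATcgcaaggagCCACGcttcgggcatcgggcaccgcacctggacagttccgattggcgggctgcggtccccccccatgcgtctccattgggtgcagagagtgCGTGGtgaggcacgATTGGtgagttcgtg
Herpud1, chr8:94386367-94386397, plus strand: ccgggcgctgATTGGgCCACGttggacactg

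Hsp90b1 held 2 elements, 1 on each strand, and that of Calr lay on the opposite strand to the gene. No overlap between elements was found in these windows. The UPRE core TGACGTGG, an XBP1 and ATF6 site, and TGATGNAAT, a form of the ATF4 site, were in 0 of the 10 windows, against 0.676% and 0.965% of all windows. The ERSE was not particular to the members. Among the lists read below, it stood in 3 of 18 other ER chaperones with a window (Canx, Creld2 and Dnajc3). It also stood in 2 of 20 disulphide isomerases and oxidases, 2 of 25 degradation genes and 1 of 25 N-glycosylation genes. The remaining lists held no exact ERSE. A match describes letters only, and was not taken as a bound site.

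The deposited values are log2 signals, and 95.8% of genes had a mean between 4 and 5, close to the floor of the table (lowest value 3.96, highest 13.0). Of the 8 members, 5 had a mean above 5 (Hspa5, Hsp90b1, Calr, Xbp1 and Herpud1), as did 4.21% of all genes. Differences near the floor are compressed. Pcyt2, the gene named in the genotype, had 4.64 ± 0.028 (SD, n = 4) in Pcyt2+/- livers against 4.84 ± 0.064 (SD, n = 2) in wild type livers. The log2 difference of -0.20 had the direction of the labels but did not pass limma (adjusted p = 0.264). Its groups did not overlap, as for 12.8% of all genes. Of the 11 measured hepatocyte markers all had a mean above 5, with Alb the brightest. Their mean signal ran from 9.95 to 10.08 over the Pcyt2+/- arrays and was 10.23 on both wild type arrays. The mean was lower in Pcyt2+/- for 9 of 11, beside 62.4% of all genes with a mean above 5. Among markers of other cells, none of the measured macrophage, endothelial, cholangiocyte, B and plasma cell, T and NK cell, neutrophil, exocrine pancreas, adipocyte or red blood cell genes had a mean above 5, and Dcn did among 10 of stellate cells and fibroblasts. The mean signals of these 10 other lists lay between 4.36 and 4.61 on the arrays of both genotypes. The part of these markers in the results below was not tested. In whole liver, fewer cells of a type and less RNA per cell cannot be told apart.

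No member passed the test between genotypes. Limma called 0 of 8 members at an adjusted p under 0.05, against 0% of all 18820 genes, and 1 of 8 (Herpud1) at an unadjusted p under 0.05, against 5.30% of all genes. Under limma's trended and robust prior 9 of all genes passed, and 0 of them were members. The members' means were lower in Pcyt2+/- for 4 and higher for 4. The median of their log2 differences, Pcyt2+/- minus wild type, was -0.0031, beside -0.00073 over all genes and -0.020 over the 792 genes with a mean above 5. This median is not stable: it was -0.13 without wild type replicate 3 and 0.11 without wild type replicate 4. The groups were apart, without overlap, in 0 of 8 members, against 12.8% of all genes. With 4 against 2 arrays the two-sided exact permutation test over 15 assignments cannot give a p under 0.0667, and over the 8 members it gave 0.20 to 1.0.

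**Figure D1:**
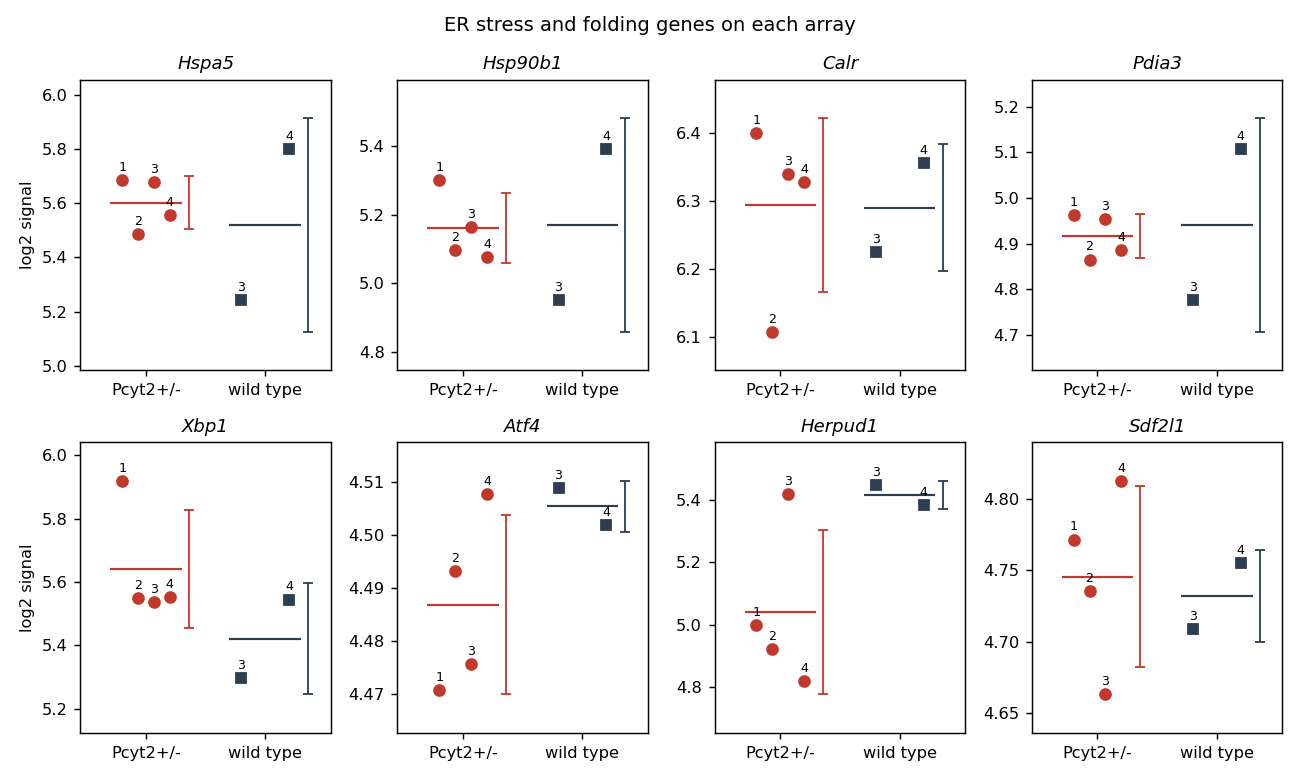
Log2 signal of the 8 measured members on each array (vertical axis, with its own scale in each panel), Pcyt2+/- mice as circles on the left and wild type mice as squares on the right, numbered by replicate. Horizontal lines are group means and the bars beside them ± SD (n = 4 and n = 2). In the panels of Hspa5, Hsp90b1 and Pdia3 the 4 Pcyt2+/- arrays lie between wild type replicate 3 and wild type replicate 4.

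Hspa5 encodes BiP, the HSP70 chaperone of the ER that also holds the stress sensors inactive. Its log2 signal was 5.69, 5.49, 5.68 and 5.56 in Pcyt2+/- replicates 1 to 4, against 5.24 and 5.80 in wild type replicates 3 and 4. All 4 Pcyt2+/- values lay between both wild type values. It averaged 5.60 ± 0.098 in Pcyt2+/- and 5.52 ± 0.39 in wild type livers (SD, n = 4 and n = 2), which differ by 0.082 with a 95% interval of -0.26 to 0.42 (limma adjusted p = 0.995), or a ratio between 0.837 and 1.34. This ratio is on the compressed scale. With each array's median signal subtracted on the linear scale, the difference was 0.19 with a 95% interval of -0.42 to 0.80. On the deposited scale the gap between the wild type mice, 0.56, was 6.78 times the difference between genotypes.

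Hsp90b1 encodes GRP94, the HSP90 chaperone of the ER lumen. It had 5.30, 5.10, 5.16 and 5.08 on the Pcyt2+/- arrays, replicates 1 to 4, against 4.95 and 5.39 on the arrays of wild type replicates 3 and 4. Here too the Pcyt2+/- livers fell inside the span of the wild type pair. The difference was -0.0098, with a 95% interval of -0.29 to 0.27 (limma adjusted p = 0.997).

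Pdia3 encodes ERp57, a disulphide isomerase that works with calreticulin and calnexin on glycoproteins. The signal was 4.963, 4.865, 4.953 and 4.887 in Pcyt2+/- replicates 1 to 4, against 4.775 and 5.106 in wild type replicates 3 and 4. The order of the 6 arrays was the same as for Hspa5. The difference was -0.024, with a 95% interval of -0.22 to 0.17 (limma adjusted p = 0.996).

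Calr encodes calreticulin, a calcium-binding lectin chaperone of the ER lumen. It had 6.40, 6.11, 6.34 and 6.33 in Pcyt2+/- replicates 1 to 4, against 6.22 and 6.36 in wild type replicates 3 and 4. The lowest array was that of Pcyt2+/- replicate 2 and the highest that of Pcyt2+/- replicate 1, so the wild type values lay inside the Pcyt2+/- range. The group means, 6.29 ± 0.13 (SD, n = 4) and 6.29 ± 0.093 (SD, n = 2), differed by 0.0037 (95% interval -0.19 to 0.19, limma adjusted p = 0.997). Sdf2l1, an ER lumen protein that joins BiP with its co-chaperones, had 4.771, 4.735, 4.663 and 4.812 in Pcyt2+/- replicates 1 to 4, against 4.709 and 4.755 in wild type replicates 3 and 4. Its difference was 0.014 (95% interval -0.079 to 0.11, limma adjusted p = 0.996), with the highest and the lowest array both among the Pcyt2+/- mice.

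Hspa5, Hsp90b1 and Pdia3 were thus the 3 of 8 members whose Pcyt2+/- values all lay between the wild type values, a pattern of 6.96% of all genes and 4.92% of those with a mean above 5. These 3 genes followed one another closely over the same arrays, as given below, so they do not count as separate observations. Their position between the wild type mice means that the sign of each difference must turn with the wild type mouse left out. Without wild type replicate 3 the differences were -0.20 for Hspa5, -0.23 for Hsp90b1 and -0.19 for Pdia3, and without wild type replicate 4 they were 0.36, 0.21 and 0.14 in the same order of genes. These values describe that position, and none passed limma (adjusted p from 0.396 to 0.77). For Calr the values were -0.062 and 0.070. With a single wild type array, its spread is taken to equal that among the Pcyt2+/- arrays.

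**Figure D2:**
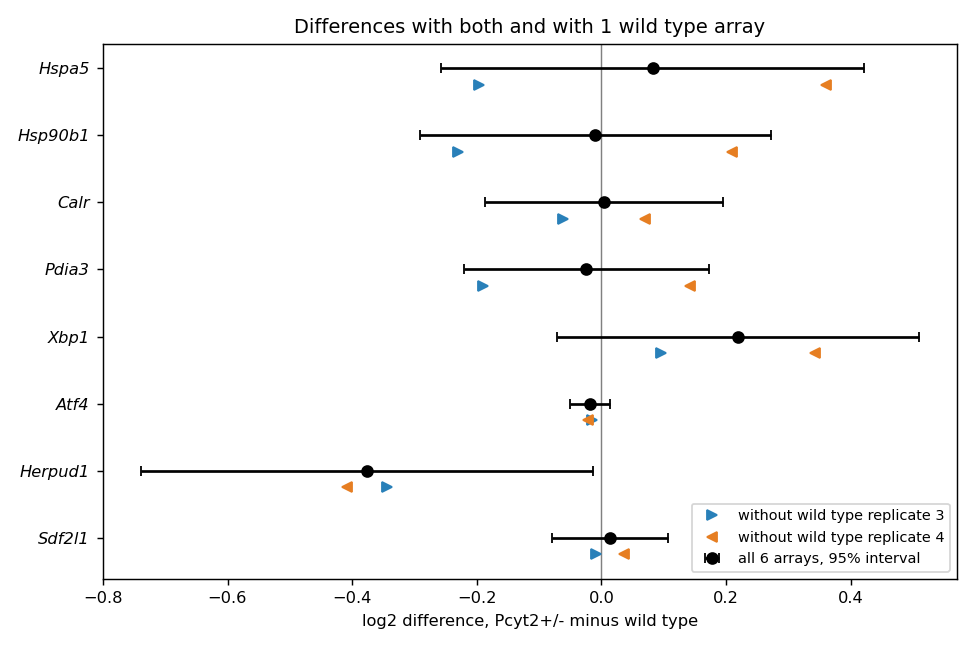
Log2 difference, Pcyt2+/- minus wild type (horizontal axis), of each member with all 6 arrays (circles, bars are limma's 95% intervals) and with 1 wild type array left out (triangles). The triangles of Hspa5, Hsp90b1, Calr, Pdia3 and Sdf2l1 stand on opposite sides of 0, and both of Herpud1 stand below 0, at -0.34 and -0.41.

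The spread between the wild type mice was not shared by all members. The absolute gap between them had a median of 0.19 over the 8 members and 0.25 over the 5 brighter ones, beside 0.074 over the genes with a mean above 5. It was larger than the difference between genotypes for 6 of 8 members, against 66.2% of all genes. The exceptions were Atf4 and Herpud1, with wild type gaps of 0.0068 and 0.063 in favour of replicate 3.

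Across the 6 arrays Hspa5 followed Pdia3 and Hsp90b1 closely. Pearson's r was 0.94 with Pdia3 (exact permutation p = 0.0069, adjusted p = 0.065 over 28 pairs of members) and Spearman's rho was 1.0 (exact permutation p = 0.0028, adjusted p = 0.078). With Hsp90b1 r was 0.92 (exact permutation p = 0.0069, adjusted p = 0.065) and rho 0.94 (exact permutation p = 0.017, adjusted p = 0.16). Hsp90b1 and Pdia3 had an r of 0.96 (exact permutation p = 0.0056, adjusted p = 0.065) and a rho of 0.94 (exact permutation p = 0.017, adjusted p = 0.16). None of the 28 pairs passed 0.05 after adjustment over the pairs. The arrays farthest from the median in these genes were both wild type ones, and over the remaining 4, all Pcyt2+/-, r was 0.99 for Hspa5 with Pdia3, 0.78 for Hspa5 with Hsp90b1 and 0.84 for Hsp90b1 with Pdia3. Calr had an r of 0.66 and a rho of 0.89 with Hspa5 (exact permutation p = 0.15 and 0.033, adjusted p = 0.59 and 0.19), and 0.87 over the 4 Pcyt2+/- arrays. Herpud1 had an r of -0.035 with Hspa5 over 6 arrays (exact permutation p = 0.94, adjusted p = 0.96), and 0.64 over the 4 Pcyt2+/- arrays. In Hspa5, Pdia3 and Calr alike, the Pcyt2+/- livers ran from replicate 1 down through replicates 3 and 4 to replicate 2. All values share the arrays and 1 joint normalization.

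**Figure D3:**
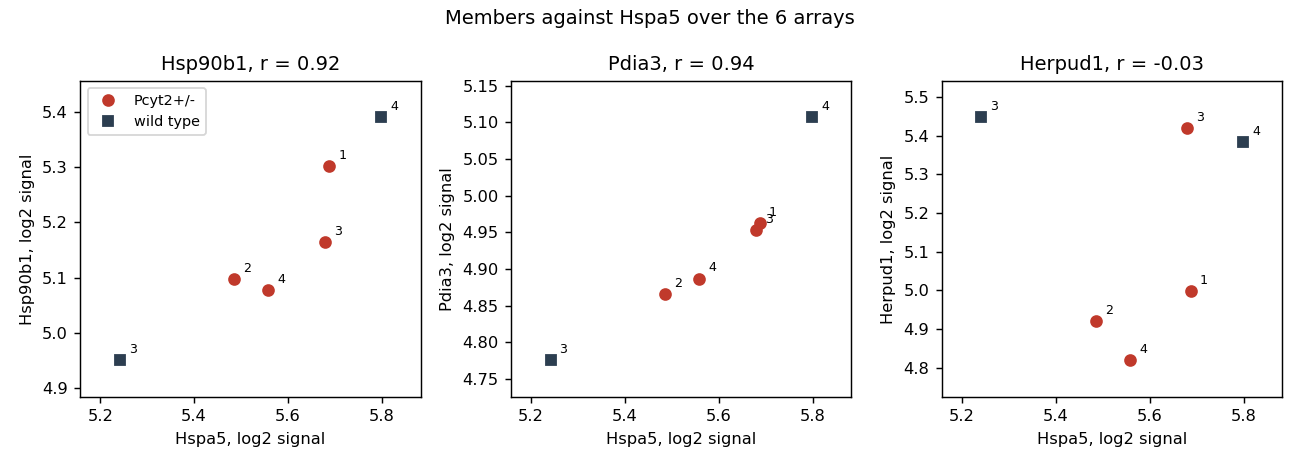
Log2 signal of Hsp90b1, Pdia3 and Herpud1 (vertical axes) against that of Hspa5 (horizontal axes), a point for each of 6 arrays, Pcyt2+/- as circles and wild type as squares, numbered by replicate. The points of Hsp90b1 and Pdia3 rise with Hspa5 (r of 0.92 and 0.94), with wild type replicates 3 and 4 at the ends, and those of Herpud1 have an r of -0.035 over 6 arrays and 0.64 over the 4 Pcyt2+/- arrays.

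Among 791 other genes with a mean above 5, 3 had an r of at least 0.9 with Hspa5 over the 6 arrays, or 0.379%, and Hsp90b1 was one of them. Outside the members the highest r values belonged to Lgalsl, a galectin-like gene (0.99), Cyp2a12, a cytochrome P450 (0.90), Hc, complement C5 (0.88), Lap3, a leucine aminopeptidase (0.88), and Sh3bgrl (0.86). Spearman's rho with Hspa5 was 1.0, 0.66, 0.54, 0.89 and 0.94 in the same order of genes, so lower than r for Cyp2a12 and Hc. Lgalsl varied little, with 0.035 between the wild type mice against 0.56 for Hspa5. None of the 5 stood in the ER lists used here.

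Herpud1 encodes an ER membrane protein that organises the degradation of misfolded ER proteins, and it had the largest absolute difference of the 8 members. Its log2 signal was 4.999, 4.920, 5.419 and 4.819 in Pcyt2+/- replicates 1 to 4, against 5.447 and 5.384 in wild type replicates 3 and 4. In 3 Pcyt2+/- livers the signal was lower than in either wild type liver, while Pcyt2+/- replicate 3 lay between both wild type values. It averaged 5.04 ± 0.26 in Pcyt2+/- and 5.42 ± 0.045 in wild type livers (SD, n = 4 and n = 2), which differ by -0.38 with a 95% interval of -0.74 to -0.014. Limma gave an unadjusted p of 0.044 and an adjusted p of 0.93, so the difference did not pass. The two-sided exact permutation test gave p = 0.27. Without Pcyt2+/- replicate 3 the difference was -0.50 (limma adjusted p = 0.163). It was smaller without Pcyt2+/- replicate 4, at -0.30 (limma unadjusted p = 0.086). After quantile normalization it was -0.34 (limma unadjusted p = 0.087). With each array's median signal subtracted on the linear scale it was -0.95 (limma adjusted p = 0.593). The same subtraction gave 0.19 for Hspa5.

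Xbp1 encodes the transcription factor that IRE1 activates by splicing its mRNA, and the files do not say whether its row separates the spliced form. The signal was 5.919, 5.551, 5.537 and 5.554 in Pcyt2+/- replicates 1 to 4, against 5.297 and 5.545 in wild type replicates 3 and 4. Replicate 1 stood far above the other Pcyt2+/- livers, 2 of those lay just above wild type replicate 4, and 1 lay just below it. The difference was 0.22 with a 95% interval of -0.071 to 0.51 (limma adjusted p = 0.949). It was 0.13 without Pcyt2+/- replicate 1, 0.095 without wild type replicate 3 and 0.40 with the median signal subtracted.

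Atf4 encodes the transcription factor of the integrated stress response, which PERK signalling raises mainly through translation of its mRNA. It lay near the floor of the array, at 4.471, 4.493, 4.476 and 4.508 in Pcyt2+/- replicates 1 to 4, against 4.509 and 4.502 in wild type replicates 3 and 4. Pcyt2+/- replicate 4 lay between the wild type values and the other Pcyt2+/- livers lay below them. The difference was -0.019 with a 95% interval of -0.050 to 0.013 (limma adjusted p = 0.956), on a scale that compresses changes this close to the floor.

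The wider pathway was read through 8 lists of 214 measured genes, in which 0 genes passed limma. The mean in Pcyt2+/- livers was lower for 121 and higher for 93. It was lower for 51.9% of all genes and for 62.4% of those with a mean above 5, shares that stand beside the counts below. At an unadjusted p under 0.05 stood 11 genes with a lower and 4 with a higher mean in Pcyt2+/- livers, beside 648 and 350 of all 18820 genes (5.30% in all). The groups did not overlap for 16 genes lower and 9 higher in Pcyt2+/-, beside 1350 and 1067 of all genes (12.8% in all). The median difference over the 214 was -0.0050, beside -0.00073 over all genes, and 22 of the 214 had a mean above 5. 

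The sensors and the proteins that process them gave 0 of 12 genes that passed, 5 with a lower and 7 with a higher mean, and a median of 0.0039. Ern1 (IRE1) had 4.52 in Pcyt2+/- and 4.48 in wild type livers, a difference of 0.035 (limma adjusted p = 0.952), and 0.021 without Pcyt2+/- replicate 1. Eif2ak3 (PERK) had a difference of 0.0034 (limma adjusted p = 0.996), and -0.0044 without Pcyt2+/- replicate 3. Atf6 had 4.51 in Pcyt2+/- and 4.54 in wild type livers, a difference of -0.031 (limma adjusted p = 0.968), and -0.0096 without Pcyt2+/- replicate 1. Nfe2l2, which encodes the antioxidant regulator NRF2, had -0.055, and 0.021 without wild type replicate 3. Creb3l1, a membrane-bound transcription factor, had 0.021, and 0.011 without wild type replicate 4.

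Of the other ER chaperones and co-chaperones, 0 of 22 passed, 11 had a lower and 11 a higher mean, and the median was 0.0034. Canx, the membrane-bound partner of calreticulin, had 5.60 in Pcyt2+/- and 5.73 in wild type livers, a difference of -0.12 that was -0.21 without wild type replicate 3 and -0.035 without wild type replicate 4 (limma adjusted p = 0.936 with all arrays). Dnajc3, a BiP co-chaperone that also inhibits PERK, had -0.045 (-0.011 without wild type replicate 4), Creld1 -0.041 (-0.013 without wild type replicate 3) and Fkbp7, a prolyl isomerase, 0.032. In the list of disulphide isomerases and ER oxidases, 0 of 23 passed, 14 had a lower mean and the median was -0.0037. Vkorc1, the vitamin K epoxide reductase of the ER membrane, had 5.50, 5.55, 5.51 and 5.59 in Pcyt2+/- replicates 1 to 4, against 5.72 and 5.75 in wild type replicates 3 and 4. These groups did not overlap, and the difference of -0.20 (95% interval up to -0.13) did not pass limma (adjusted p = 0.235). After quantile normalization the difference of Vkorc1 was -0.11. P4hb, the main disulphide isomerase, had -0.11 (-0.065 without wild type replicate 4 and -0.033 after quantile normalization), Prdx4, an ER peroxiredoxin, -0.033 and Txndc5 -0.030.

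Herpud1's own pathway, ER associated degradation, had 0 of 32 genes that passed and 0 at an unadjusted p under 0.05, with 16 lower and 16 higher means and a median of -0.00061. Its smallest unadjusted p values belonged to Dnajb12, an ER membrane co-chaperone (0.040), Aup1 (-0.069), Ngly1, which removes glycans from misfolded proteins (-0.019), and Jkamp (-0.020). Without wild type replicate 4 the differences were 0.010 for Dnajb12, -0.036 for Aup1 and -0.013 for Jkamp. Among targets of ATF4 and the integrated stress response, 0 of 36 passed, 21 had a lower mean and the median was -0.0056. Cth, which makes cysteine, had -0.23 (limma adjusted p = 0.549, and 0.0159 without Pcyt2+/- replicate 1, whose value of 5.17 stood above 4.998 to 5.020 in the other Pcyt2+/- livers, against 5.27 and 5.28 in wild type). Xpot, a tRNA exporter, had -0.049, Ppp1r15b, which restores translation, 0.021 (0.0049 without wild type replicate 4 and -0.00098 as the mean of its rows), and Slc7a11, the cystine transporter, 0.019 (0.012 without wild type replicate 3).

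In translocation and signal peptide handling, 0 of 24 passed, 14 had a higher mean and the median was 0.0049. Srpr, the receptor of the signal recognition particle, had 0.057 (limma adjusted p = 0.511, and a difference of 0.22 with the median signal subtracted), Srp14, a part of that particle, 0.050, Sec61a1, the channel subunit, 0.042, and Sec63 0.022. Without wild type replicate 3 the differences of Sec61a1 and Sec63 were 0.018 and 0.00049. In N-glycosylation, 0 of 30 passed, 20 had a lower mean and the median was -0.0082, with -0.043 for Magt1 (-0.028 without wild type replicate 4), -0.034 for Stt3b, a catalytic subunit of the glycan transfer enzyme, -0.031 for Uap1 (-0.021 without wild type replicate 4) and 0.030 for Alg9. In ER to Golgi transport, 0 of 36 passed, 25 had a lower mean and the median was -0.013. Sec23a, of the COPII coat, ran from 4.591 to 4.616 in Pcyt2+/- livers, against 4.685 and 4.732 in wild type livers, a difference of -0.11 with groups that did not overlap (limma adjusted p = 0.294), and -0.68 with the median signal subtracted. Tmed2, a cargo receptor, had -0.095 (-0.021 without wild type replicate 4 and -0.27 with the median signal subtracted), Mcfd2 -0.036 and Kdelr3, which returns escaped ER proteins, 0.021. Wild type replicate 4 exceeded wild type replicate 3 for 6 of 8 members and for 127 of the 214 list genes. The lists differed in this, with 30 of 36 in ER to Golgi transport, 18 of 24 in translocation, 20 of 32 in degradation, 13 of 23 disulphide isomerases and oxidases, 16 of 30 in N-glycosylation, 6 of 12 sensors, 10 of 22 other chaperones and 15 of 36 ATF4 targets, beside 43.2% of all genes and 57.6% of those with a mean above 5.

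**Figure D4:**
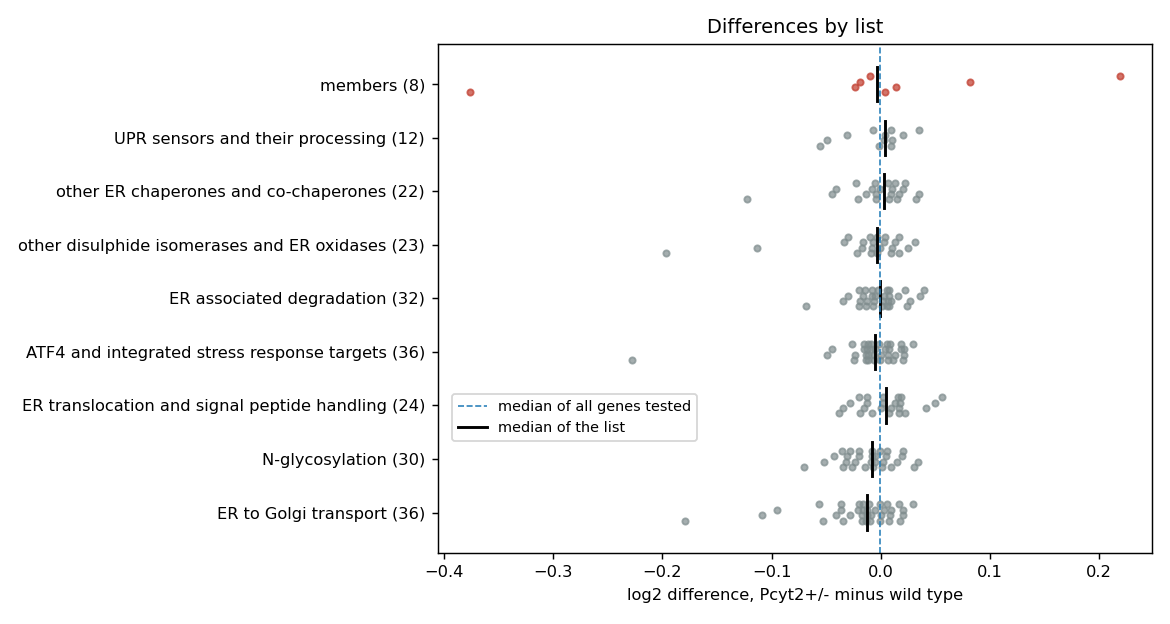
Log2 difference, Pcyt2+/- minus wild type (horizontal axis), of each measured gene (points) in the 8 members and 8 pathway lists (rows, number of genes in brackets). Short black lines are list medians, between -0.013 and 0.0049, and the dashed line is the median of all genes tested, -0.00073. Herpud1, at -0.38, lies farthest from 0.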

How the data were processed

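The authors deposited log2 values for each probe set of Affymetrix arrays, made with RMA per the submitters' processing notes. A build and an RMA version are not given in the sources used here. In all, the table held 28996 rows for 6 arrays; 21218 had 1 gene symbol in the platform annotation, 1881 several and 5897 were unnamed here. Where a gene had several rows, that of highest mean signal was used. Older symbols of the lists were matched by RefSeq gene identifier.

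Genotypes were compared over all genes with limma 3.58.1 in R 4.3.3 through lmFit and eBayes, two-sided and without covariates. The p-values were adjusted by Benjamini and Hochberg's method across the 18820 genes, with 0.05 as threshold. Only the limma fit was tested on simulated data, with planted changes larger than the difference of any member. That test does not show whether differences as small as those of the members would be found. Correlations between members used exact permutation tests over the arrays. The named genes are the 8 members, Pcyt2, the sensors Ern1, Eif2ak3 and Atf6, the 4 genes of smallest unadjusted p in each list, the 5 genes outside the members with the highest r with Hspa5, and, for markers, the highest of a list. Members, lists, tests and this rule were chosen with earlier results of these data known. Mice are named apart in the titles, and whether they shared a litter was not given. Promoters are RefSeq's, build GRCm38.p6. Precision is limited by the number of arrays. Python 3.11.15 served the remaining steps.

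Other settings were a trended and robust prior, quantile normalization, median centring, only genes with a mean above 5, all rows separately, a gene's rows averaged, array weights, a replicate block, each array left out, and the median linear signal of each array subtracted with a floor of 1. The last was restricted to genes with a mean above 4.6, a choice made after seeing the data.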

Additional observations from a re-analysis of the deposited data

Results flagged for a closer look

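Among the 4 Pcyt2+/- livers a single value stood far from the other 3 in 4 of the 47 genes examined, with a gap that takes more of the 4-liver range than Dixon's 95% critical value. Chance alone gives about 1 in 20 such groups where groups are independent and not selected. The genes examined share the same livers and were partly picked by their values, so the count cannot show an excess. For Xbp1 it was Pcyt2+/- replicate 1, at 5.919 against 5.537 to 5.554 in the other Pcyt2+/- livers. The same liver held the value apart for Cth, at 5.172 against 4.998 to 5.020, and for Xpot, at 4.468 against 4.501 to 4.508. For Aup1, a protein of ER associated degradation and lipid droplets, it was Pcyt2+/- replicate 4, at 5.305 against 5.384 to 5.398.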

How the results depend on the processing

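In 15 other settings no member passed limma (lowest adjusted p 0.163, Herpud1 without Pcyt2+/- replicate 3). Herpud1 stayed lower (-0.95 to -0.30) and Xbp1 higher (0.095 to 0.40) in each of them. The values of -0.95 and 0.40 came with the median signal subtracted, which is another scale. Atf4 also stayed lower in each setting it entered (-0.026 to -0.013). Of 47 named genes, 13 changed sign in at least 1 setting, and 5 of these were members. The genes that passed among all numbered 3 with only genes of mean above 5, 3 with the median signal subtracted, 9 with the trended and robust prior, and 0 to 9 with 1 array left out (9 without wild type replicate 3). The replicate block gave 2 passing genes and turned Cyp2a12 to 0.016. It changed no member's call, and no paired design was assumed, since only 2 numbers are shared. Deviations of same-numbered arrays from their group means had correlations of 0.15 and 0.072. With 2 wild type arrays the wild type deviations are exact opposites, so these correlations cannot decide whether the mice were paired. Quantile normalization turned Cyp2a12 to 0.085, Hsp90b1 to 0.022 and Sh3bgrl to 0.010, and separated the groups for 1 member, Xbp1, as for 13.3% of all genes. Median signal subtraction gave 0.028 for Hsp90b1, array weights -0.00052 for Calr and averaging a gene's rows -0.00098 for Ppp1r15b. The cause was not tested.

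With each array left out in turn, the members' median ran from -0.13 to 0.11, and differences ran from -0.20 to 0.36 for Hspa5, -0.23 to 0.21 for Hsp90b1, -0.19 to 0.14 for Pdia3, -0.062 to 0.070 for Calr and -0.0093 to 0.041 for Sdf2l1. Outside the members they ran from -0.15 to 0.14 for Cyp2a12, -0.0044 to 0.0070 for Eif2ak3, -0.0037 to 0.26 for Hc, -0.023 to 0.12 for Lap3, -0.014 to 0.021 for Lgalsl, -0.13 to 0.021 for Nfe2l2 and -0.043 to 0.025 for Sh3bgrl. Members whose groups did not overlap numbered 0 to 6: 3 without wild type replicate 3 (40.9% of all genes) and 6 without wild type replicate 4 (39.4% of all genes), where fewer samples must separate. That count has no separate value for the prior, the array weights or the block, which leave the values as they are. Only 22 of the 214 list genes had a mean above 5, and nearer the floor small changes are hard to resolve.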
